A study of Rattus norvegicus with 18 samples.

Results

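The laminin, nidogen and perlecan genes were followed in whole-liver RNA from male Wistar rats of the BarNa model of non-alcoholic steatohepatitis (NASH). The 10 genes were fixed by name: the laminin α-chain genes Lama2, Lama3, Lama4 and Lama5, the β-chain genes Lamb1 and Lamb2, the γ-chain gene Lamc1, the nidogen genes Nid1 and Nid2, and the perlecan gene Hspg2. Of 32623 genes in each deposited table, 9 members were found by symbol. Hspg2 was found under an older name of its row, AABR07073181.1 (ENSRNOG00000021437), which RefSeq lists as a synonym of Hspg2. All 10 members were among the 12904 genes that passed the filter on low counts.

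There were 6 control rats, 6 NASH rats and 6 rats with NASH and cirrhosis (NASH-CH), with 1 library each. Control rats received standard chow and normal drinking water for 12 weeks. NASH rats inhaled carbon tetrachloride (CCl4) and drank water with phenobarbital for 6 weeks, and were then fed a high fat and high cholesterol diet for 4 weeks. NASH-CH rats had CCl4 and phenobarbital for 8 weeks and then the diet for 16 weeks with both agents continued, 24 weeks in all. Diet, both agents and the length of the protocol therefore changed together, and their parts in a difference between groups cannot be told apart. The RNA came from whole liver, so in any gene below a change in the share of a cell type and a change in RNA per cell cannot be told apart.

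Laminins are trimers of 1 α, 1 β and 1 γ chain that assemble into the sheet-like network of basement membranes. Nidogens bind laminin and link it to the type IV collagen network, and perlecan is a heparan sulphate proteoglycan of the same layer. In normal liver, bile ducts and portal vessels rest on a basement membrane while sinusoids lack a continuous one, and the deposition of such a layer along sinusoids is part of the process known as capillarization.

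Totals of expected counts ran from 19498534 to 27174015 in control livers, from 20827770 to 29491947 in NASH livers and from 44680344 to 60117822 in NASH-CH rats, so NASH-CH libraries were 2.07 times as deep as control libraries on average (p = 0.00216 by a two-sided exact permutation test, the lowest p that 6 rats against 6 can give). Small 7SK and signal recognition particle RNA genes held 17.85% ± 2.34 of the counts in control livers, 15.0% ± 0.973 in NASH livers and 11.5% ± 0.753 in NASH-CH rats (SD, n = 6; exact permutation p = 0.0108 and 0.00216 against control). Levels are given below as CPM, read counts relative to library totals that were scaled by the trimmed mean of M-values (TMM). CPM is not divided by transcript length, so it compares 1 gene between rats and not the genes with each other. Hepatocyte markers were abundant in every library, with summed levels of 79280 to 179600 CPM over 8 markers.

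Promoter sequence in the RefSeq tables of build GRCr8, another build than the Rnor_6.0 of the counts, was present for 8 members and is shown for 3: Lama4 as the α-chain gene that passed the test, Lama5 as the α-chain gene with the largest fold change, and Lamc1 as the γ-chain gene shared by most laminin trimers. Each run holds the 250 bases before the annotated start, written from 5′ to 3′ on the strand of the gene. Capitals mark matches on either strand to the GC-box letters GGGCGG, to the NF-Y motif CCAAT, to the core-promoter motif TATAAA and to the AP-1 motif TGANTCA, and adjoining capitals can hold overlapping matches.
Lama4, chr20:43946648-43946897, plus strand: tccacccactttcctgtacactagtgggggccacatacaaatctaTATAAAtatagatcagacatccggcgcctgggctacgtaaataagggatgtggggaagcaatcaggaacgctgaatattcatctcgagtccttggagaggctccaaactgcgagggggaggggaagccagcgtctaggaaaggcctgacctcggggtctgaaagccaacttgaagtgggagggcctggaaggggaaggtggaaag
Lama5, chr3:187695975-187696224, minus strand: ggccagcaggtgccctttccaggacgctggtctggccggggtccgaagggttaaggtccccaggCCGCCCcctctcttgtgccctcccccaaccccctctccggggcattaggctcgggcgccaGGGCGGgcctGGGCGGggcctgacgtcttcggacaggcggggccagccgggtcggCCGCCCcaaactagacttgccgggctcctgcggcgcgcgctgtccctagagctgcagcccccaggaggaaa
Lamc1, chr13:68051987-68052236, minus strand: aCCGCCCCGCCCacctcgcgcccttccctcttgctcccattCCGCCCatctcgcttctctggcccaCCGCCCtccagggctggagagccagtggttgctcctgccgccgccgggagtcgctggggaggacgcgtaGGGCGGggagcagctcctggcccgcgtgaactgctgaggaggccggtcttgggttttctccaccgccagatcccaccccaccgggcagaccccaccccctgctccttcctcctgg

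The 3 windows differed in base composition. G and C made up 53.2% of the Lama4 window, 72.8% of the Lama5 window and 71.2% of the Lamc1 window, beside a median of 51.2% over 33469 promoters of the same length. Lama5 held 4 GC-box matches and Lamc1 held 5, whereas Lama4 held none and had 1 TATAAA match. That match lay near the 5′ end of the window, far from the annotated start. Among the 8 member windows, 6 held a GC box, and 30.5% of all promoters did. CCAAT was found in 2 member windows (34.0% of all promoters), TATAAA in 1 (12.9%) and TGANTCA in 1, that of Lama3, with 3 matches (6.34% of all promoters). These matches describe letters in the window and do not show that a factor was bound.

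Across the whole group, no member passed the test in NASH rats and 2 rose in NASH-CH rats. In NASH against control, 0 of 10 members were called higher or lower (limma-voom with Benjamini-Hochberg adjustment over all 12904 genes, threshold 0.05), beside 1.58% of all genes called higher and 1.54% called lower. Unadjusted p was under 0.05 for 3 members (Lama4, Nid1 and Hspg2), and edgeR and DESeq2 each called 0. Over all 12904 genes edgeR called 325 higher and 327 lower in NASH, and DESeq2 570 and 658. In NASH-CH against control, Nid1 and Lama4 were called higher and none lower, beside 8.38% of all genes called higher and 8.6% called lower. Unadjusted p was under 0.05 for 5 members there, and edgeR and DESeq2 each called 4 higher, namely Nid1, Lama4, Lama5 and Lamb1. Over all 12904 genes edgeR called 1279 higher and 1170 lower in NASH-CH, and DESeq2 1439 and 1402. In NASH-CH against NASH, 0 members were called, beside 1.81% of genes called higher and 2.39% called lower, with 2 members (Lamb1 and Hspg2) at an unadjusted p under 0.05 and 0 calls by edgeR or DESeq2. Over all genes edgeR called 314 higher and 303 lower in that comparison, and DESeq2 496 and 453. The median log2 fold change of the 10 members was 0.20 in NASH and 0.23 in NASH-CH against the shared control rats, and the medians over all genes tested were 0.0072 and 0.013.

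**Figure D1:**
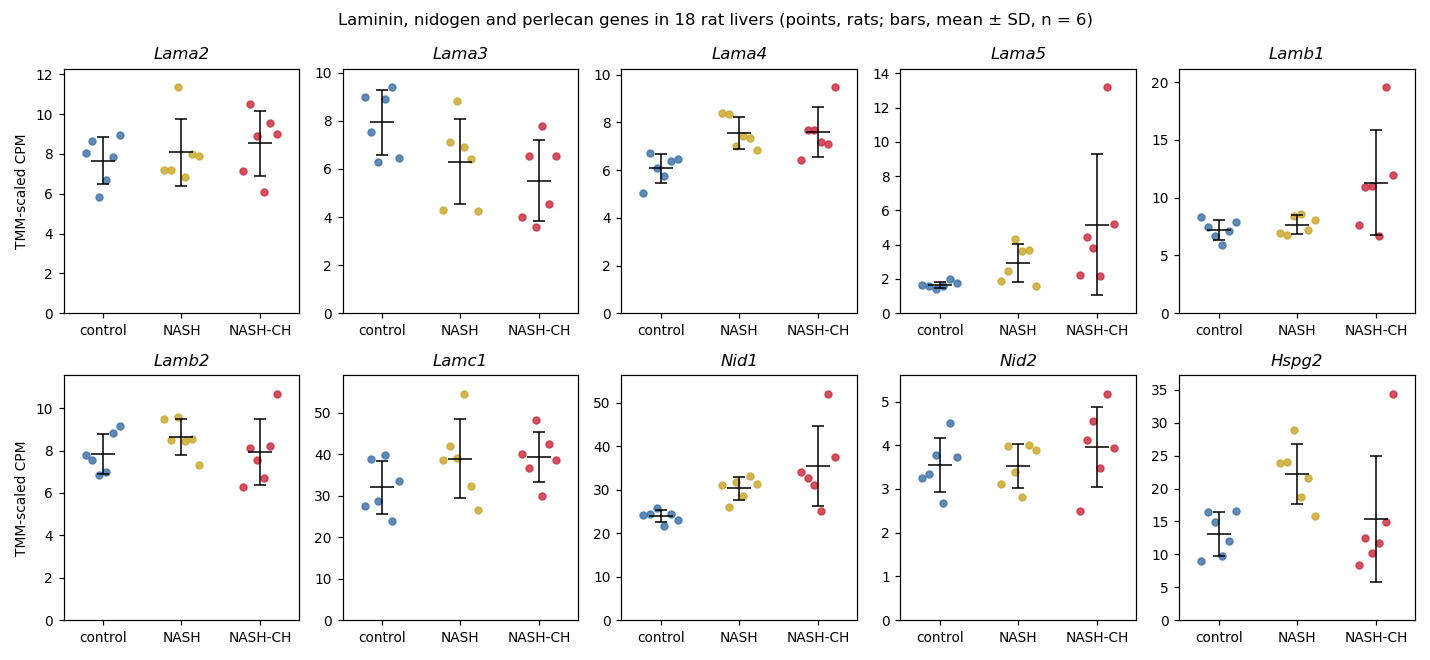
Level of each member in each rat in TMM-scaled CPM (vertical axes, from 0), with 1 point per rat and the mean ± SD of 6 rats per group. Nid1 and Lama4 lay above the controls in both disease groups with little or no overlap, and 1 NASH-CH rat reached 13.22 CPM of Lama5 and 19.60 CPM of Lamb1.

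Among the α chains, Lama4, the chain of vascular basement membranes, was called higher in NASH-CH, with the same point estimate in NASH. Its level ran from 5.05 through a median of 6.25 to 6.71 CPM in control livers, from 6.83 through 7.38 to 8.38 in NASH livers and from 6.42 through 7.42 to 9.50 in NASH-CH rats. All 6 NASH rats lay above all control rats, and 5 of 6 NASH-CH rats did. The log2 fold change against control was 0.30 ± 0.10 (SE) in NASH-CH (adjusted p = 0.0499) and 0.30 ± 0.11 in NASH (adjusted p = 0.122). The call in NASH-CH stood at the threshold and was lost in 15 of 18 fits that left out 1 rat (adjusted p 0.0272 to 0.119). It was kept without control rat 2, NASH-CH rat 1 or NASH-CH rat 5, and leaving out any other rat ended it. NASH rats are not in this comparison, and leaving 1 out acts only through the shared spread, scaling, filter and adjustment.

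Lama5, the α chain of epithelial and arterial basement membranes, had the lowest counts of the members (26 to 49 per library in control rats) and the largest fold change. The lowest, median and highest levels were 1.41, 1.60 and 1.98 CPM in control livers, 1.58, 3.05 and 4.36 in NASH livers and 2.16, 4.11 and 13.22 in NASH-CH rats. Every NASH-CH rat exceeded every control rat, as did 4 of 6 NASH rats. The log2 fold change in NASH-CH against control was 1.39 ± 0.48, an average 2.62-fold (95% interval 1.31 to 5.25), with an adjusted p of 0.0533 by limma-voom, 0.00641 by edgeR's quasi-likelihood test and 0.000226 by DESeq2. It passed the limma-voom threshold without NASH-CH rat 1, rat 4 or rat 5 (lowest adjusted p 0.0263), with values from 1.02 without rat 5 to 1.57 without rat 4. In NASH it was 0.72 ± 0.53 (adjusted p = 0.460).

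Lama2, the merosin chain known from muscle and mesenchymal basement membranes, differed by less than the spread between rats, with 7.67 ± 1.18 CPM in control livers, 8.08 ± 1.68 in NASH livers and 8.53 ± 1.63 in NASH-CH rats (SD, n = 6). Lama3, the chain of the epithelial laminin that anchors hemidesmosomes, was the member with the most negative fold change against control. Its level was 6.31 to 9.42 CPM in control (median 8.22), 4.27 to 8.83 in NASH (6.66) and 3.58 to 7.80 in NASH-CH rats (5.55), and the 3 ranges overlapped. The log2 fold change was -0.57 ± 0.21 in NASH-CH (adjusted p = 0.0654) and -0.36 in NASH (adjusted p = 0.359). Without NASH-CH rat 4 the NASH-CH value was -0.68 and passed the threshold (adjusted p = 0.0298).

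Neither β chain passed the test. Lamb1, the β chain of the laminins first laid down in development, ran from 5.87 through a median of 7.29 to 8.29 CPM in control livers, from 6.77 through 7.63 to 8.60 in NASH livers and from 6.70 through 10.94 to 19.60 in NASH-CH rats. Of the NASH-CH rats, 4 of 6 lay above all controls, and the log2 fold change of 0.57 ± 0.20 had an adjusted p of 0.0590 (0.0242 by edgeR). It passed the threshold without NASH-CH rat 1 or rat 4 (lowest adjusted p 0.0149) and was 0.39 without NASH-CH rat 5. Lamb2, the β chain of mature vascular and kidney basement membranes, was 7.86 ± 0.94 CPM in control livers, 8.64 ± 0.83 in NASH livers and 7.93 ± 1.55 in NASH-CH rats, with a NASH-CH log2 fold change of -0.0027 (95% interval -0.26 to 0.25). Lamc1 was 32.1 ± 6.37, 38.9 ± 9.54 and 39.4 ± 6.08 CPM in the 3 groups, and neither its log2 fold change of 0.27 in NASH nor that of 0.30 in NASH-CH passed (adjusted p = 0.345 and 0.225).

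Nid1, the more widely expressed nidogen, had the lowest adjusted p of the members. The lowest, median and highest levels were 21.7, 24.3 and 25.8 CPM in control livers, 26.0, 31.2 and 33.3 in NASH livers and 25.2, 33.4 and 52.2 in NASH-CH rats. All 6 NASH rats and 5 of 6 NASH-CH rats exceeded every control rat. The log2 fold change in NASH-CH was 0.52 ± 0.12, or 1.44-fold (95% interval 1.20 to 1.72, adjusted p = 0.00792), and stayed called in each of 18 fits without 1 rat (0.41 to 0.62). In NASH it was 0.34 ± 0.12 (limma-voom adjusted p = 0.113, and 0.0324 without NASH-CH rat 5), and the difference between NASH-CH and NASH was 0.18 (adjusted p = 0.469). NASH-CH rats are not in the comparison of NASH with control, nor NASH rats in that of NASH-CH with control. Leaving out such a rat acts only through the shared spread, scaling, filter and adjustment, so it is no check on the difference. Nid2 was 3.55 ± 0.62, 3.53 ± 0.50 and 3.96 ± 0.92 CPM in the 3 groups, with ranges that overlapped and no call (adjusted p = 0.982 in NASH and 0.570 in NASH-CH).

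Hspg2 had a different order of groups, with its highest median in NASH rats. It ran from 9.04 through a median of 13.5 to 16.6 CPM in control livers, from 15.8 through 22.7 to 28.9 in NASH livers and from 8.35 through 12.1 to 34.4 in NASH-CH rats. In NASH, 5 of 6 rats lay above all controls, whereas 5 of 6 NASH-CH rats lay below all NASH rats and NASH-CH rat 6 lay above all of them. The log2 fold change was 0.75 ± 0.27 in NASH (adjusted p = 0.123), 0.076 in NASH-CH (adjusted p = 0.872) and -0.68 ± 0.26 between NASH-CH and NASH (adjusted p = 0.171). Without NASH-CH rat 6 the last difference was -0.95 and passed the threshold (limma-voom adjusted p = 0.00551), and the NASH value then also passed (adjusted p = 0.0308). NASH-CH rat 6 is not in the comparison of NASH with control. Leaving it out acts there only through the shared spread, scaling, filter and adjustment, so that fit is no check on the NASH value.

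**Figure D2:**
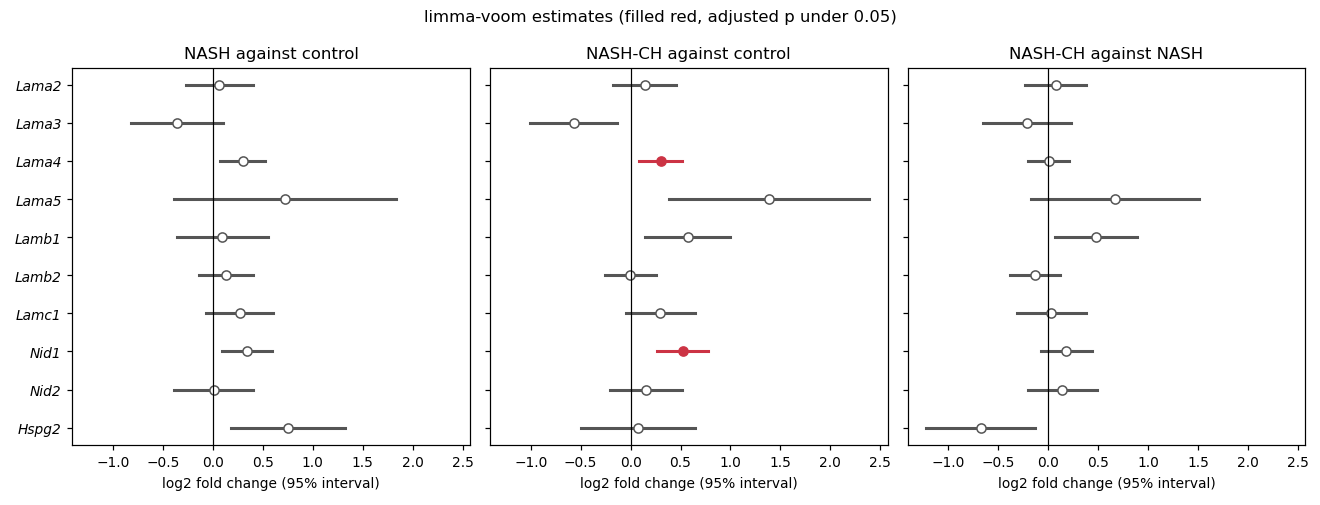
Log2 fold change (horizontal axis) with its 95% interval for each member in the 3 comparisons, from 1 limma-voom fit of 18 rats. Filled red points passed an adjusted p of 0.05, which only Nid1 and Lama4 in NASH-CH against control did, while Lama5 had the widest intervals.

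Groups that did not overlap were counted beside the same count over all genes. In NASH, 2 members (Lama4 and Nid1) had every rat above every control rat, as did 1.77% of all genes tested. In NASH-CH only Lama5 did, beside 3.64% of all genes.

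A pair of NASH-CH rats held most of the highest values of the members. The share of all tested genes that peaked in these rats was not counted. The counts below therefore have no background beside them and are not shown to be particular to the members. TMM scaling factors were 1.28 in NASH-CH rat 5 and 1.22 in NASH-CH rat 6, against 0.79 to 1.15 in the other rats. Of the 10 members, 4 reached their highest level of all 18 rats in NASH-CH rat 5 (Lama5 at 13.22, Lamb1 at 19.60, Nid1 at 52.16 and Nid2 at 5.18 CPM) and 3 in NASH-CH rat 6 (Lama4 at 9.50, Lamb2 at 10.69 and Hspg2 at 34.42 CPM). NASH-CH rat 5 also had the highest level of 7 of 8 markers of cholangiocytes, the epithelial cells of bile ducts, with a summed level of 49.3 CPM against 5.44 to 14.0 CPM in the other 17 rats. Krt19, a cholangiocyte keratin, was 6.08 CPM in that rat and 1.54 to 2.48 CPM in control rats, and the summed level ran from 7.67 to 8.63 CPM in control livers, from 5.58 to 12.2 in NASH livers and from 5.44 to 49.3 in NASH-CH rats. The same rat held the highest level of 6 of 11 stellate cell and myofibroblast markers, of 5 of 8 lymphocyte markers and of 4 of 8 portal fibroblast and mesothelium markers. Its summed lymphocyte level was the highest (24.6 CPM, against 7.23 to 14.3 in the other 17). Its summed stellate level (470.5 CPM, against 289.2 to 492.4) and portal fibroblast level (62.6 CPM, against 23.3 to 90.1) were within the range of the other rats. Its summed levels of sinusoidal endothelial markers (155.6 CPM, against 246.2 to 324.6 in the other 17) and of hepatocyte markers (79280 CPM, against 84200 to 179600) were the lowest of the 18 rats. The part of these cells in the member levels was not tested.

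With NASH-CH rats 5 and 6 left out, an alternative chosen after the data were seen, 1 member was called in NASH-CH. Nid1 kept its call (log2 fold change 0.35, adjusted p = 0.0213), Lama4 fell short at 0.24 (adjusted p = 0.118), and Lama5, at 0.85 (adjusted p = 0.0730), and Lamb1, at 0.31 (adjusted p = 0.186), had smaller values. In the same fit Hspg2 was called lower in NASH-CH than in NASH (-1.05, limma-voom adjusted p = 0.00344), and Nid1 and Hspg2 were called higher in NASH than in control (adjusted p = 0.0225 and 0.0185). The comparison of NASH with control holds no NASH-CH rat, so these calls came only through the shared spread, scaling, filter and adjustment.

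**Figure D3:**
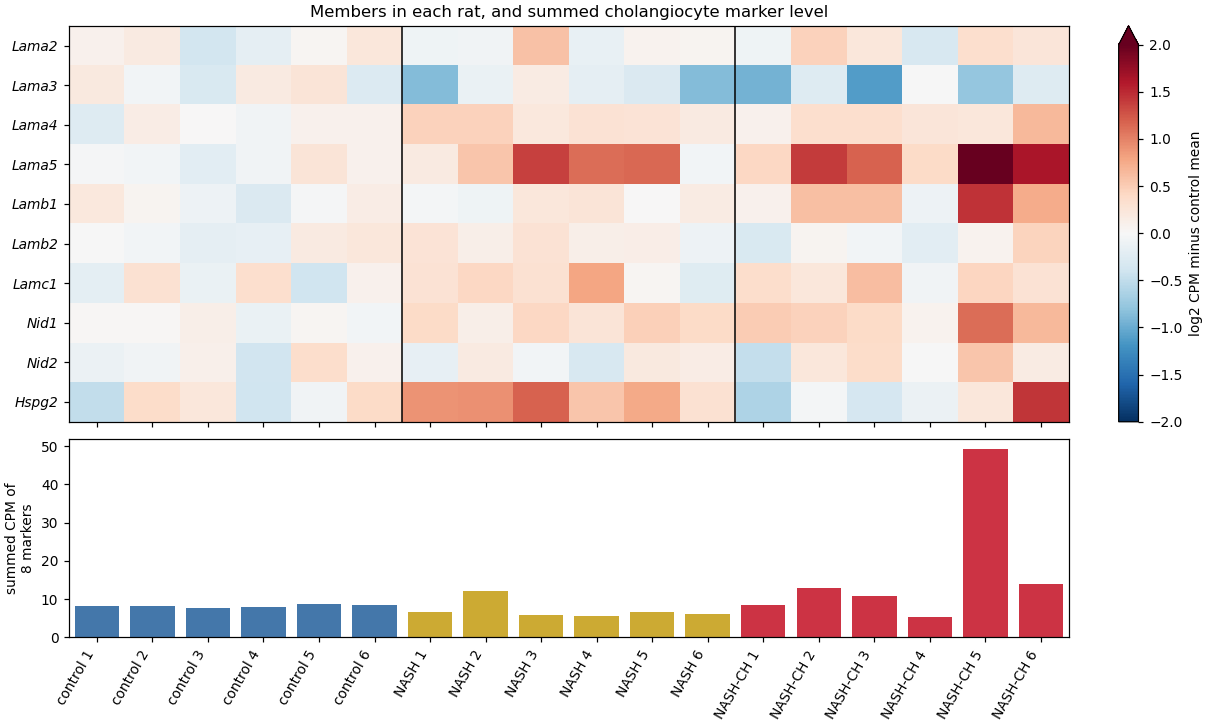
Upper panel, log2 CPM of each member in each rat minus the mean of the control rats (colour scale from -2 to 2). Lower panel, summed CPM of 8 cholangiocyte markers per rat, from 0, with NASH-CH rat 5 at 49.3 CPM and the other rats at 5.44 to 14.0 CPM.

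To compare chains within the same liver, the log2 ratio of a pair of members was taken in each rat and tested between groups by two-sided exact permutation, with adjustment over 15 tests (5 pairs in 3 comparisons). The ratio of Lamb1 to Lamb2 was -0.12 ± 0.16 on the log2 scale in control livers, -0.17 ± 0.22 in NASH livers and 0.44 ± 0.44 in NASH-CH rats (SD, n = 6). It was higher in NASH-CH rats by 0.56 against control (exact permutation p = 0.00433, adjusted p = 0.0244) and by 0.61 against NASH (exact permutation p = 0.00649, adjusted p = 0.0244). The call against control was lost when control rat 2, 3, 4, 5 or 6 was left out, and that against NASH without NASH rat 1, 2, 3 or 5 (highest adjusted p 0.0649 in both).

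Relative to Lama5, both other α chains tested were lower in NASH-CH rats than in control rats. The ratio of Lama2 to Lama5 was 2.17 ± 0.19 in control livers, 1.52 ± 0.51 in NASH livers and 0.98 ± 0.77 in NASH-CH rats, a difference of -1.18 between NASH-CH and control (exact permutation p = 0.00216, adjusted p = 0.0244). The call was kept without any 1 control or NASH-CH rat. Leaving out a NASH rat does not change this difference or its unadjusted p, so those fits are no check on it. In NASH the difference was -0.65 (exact permutation adjusted p = 0.0519). The ratio of Lama4 to Lama5 was 1.84 ± 0.19, 1.44 ± 0.62 and 0.83 ± 0.92 in the 3 groups, lower in NASH-CH than in control by 1.02 (difference -1.02, exact permutation adjusted p = 0.0244). That call was lost when any 1 of the 6 control rats was left out (highest adjusted p 0.0731). These pairs share Lama5 and so are not separate results. Without NASH-CH rats 5 and 6 the 4 called ratio differences were 0.43, 0.48, -0.77 and -0.59 for Lamb1 to Lamb2 against control, Lamb1 to Lamb2 against NASH, Lama2 to Lama5 and Lama4 to Lama5 (exact permutation adjusted p = 0.0476 each).

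The remaining pairs did not pass. The ratio of Nid1 to Nid2 was higher by 0.34 in NASH (exact permutation adjusted p = 0.0703) and by 0.39 in NASH-CH (0.102). The ratio of Hspg2 to Lamc1 differed by 0.50 in NASH, by -0.21 in NASH-CH and by -0.71 between NASH-CH and NASH (exact permutation adjusted p = 0.108, 0.657 and 0.108).

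**Figure D4:**
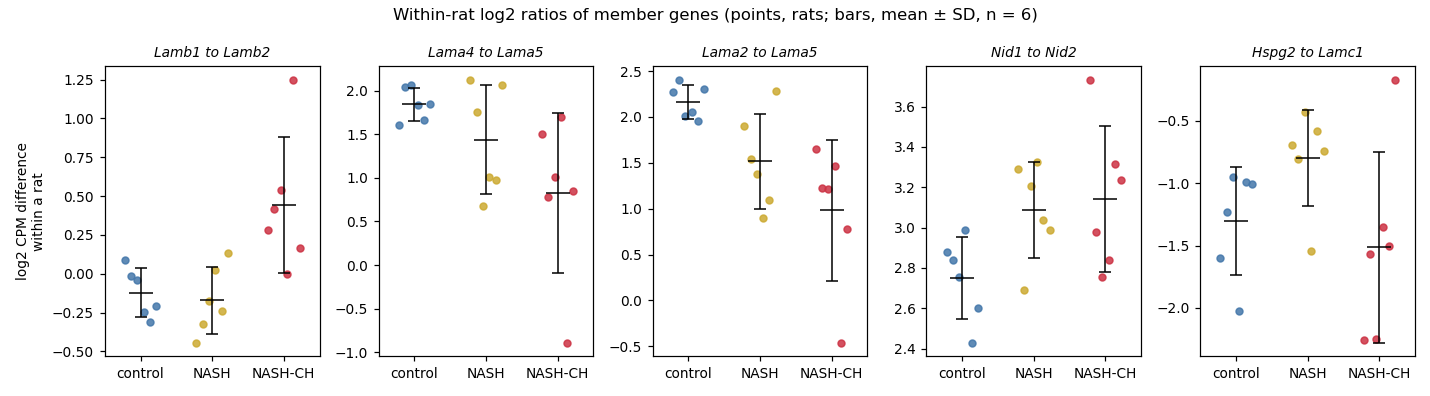
Log2 ratio of 5 pairs of members within each rat (vertical axes, log2 CPM of the first gene minus that of the second), with 1 point per rat and the mean ± SD of 6 rats. Lamb1 to Lamb2 averaged 0.44 in NASH-CH and -0.12 in control rats, and Lama2 to Lama5 averaged 0.98 and 2.17.

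Across the 18 rats, the genes most like Lamc1 in log2 CPM were Ppan (Pearson r = 0.899), Usp36 (0.869), Urb1 (0.864), Spata5 (0.863) and Map3k6 (0.861), and among the members the closest to Lamc1 was Lama5 (0.483). For Hspg2 they were Dchs1 (0.936), Notch1 (0.931), Plxnd1 (0.926), Polr2a (0.914) and Scamp5 (0.899), and the closest members were Lamb2 (0.782) and Lama4 (0.687). Among all tested genes Lama5 ranked only 1392 in likeness to Lamc1, while Lamb2 ranked 63 and Lama4 ranked 229 in likeness to Hspg2. With each rat taken as its deviation from the group mean, these r were 0.301, 0.772 and 0.778. The points share the 3 groups and their depths, and these values are descriptions over 18 rats.

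Of the laminin chains outside the group, Lamb3, the β chain that pairs with the Lama3 chain in epithelia, was at 0.54 to 0.69 CPM in control livers, 0.34 to 1.58 in NASH livers and 0.50 to 2.21 in NASH-CH rats, with ranges that overlapped. Lama1 reached at most 0.137 CPM in any rat.

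The 7 tested basement membrane collagen genes had a median log2 fold change of 0.22 in NASH and 0.39 in NASH-CH, and 1 was called in NASH-CH. There 5 had an unadjusted p under 0.05, edgeR called 1 and DESeq2 4, and limma-voom called 3 without control rat 1, NASH-CH rat 1 or NASH-CH rat 4 and 0 when at least 10 counts were required in every rat. In NASH limma-voom called 0, with 1 at an unadjusted p under 0.05 and 1 call by edgeR and by DESeq2. Col15a1, a collagen of vascular basement membranes, was at 0.14 ± 0.12 CPM in control, 0.14 ± 0.073 CPM in NASH and 1.26 ± 0.51 CPM in NASH-CH rats. Its log2 fold change in NASH-CH was 3.57 ± 0.62 (limma-voom adjusted p = 0.000809). Its counts were 0 to 5 per control library, 1 to 6 per NASH library and 31 to 161 per NASH-CH library. It passed the filter on low counts through the deeper NASH-CH libraries, and the size of its fold change rests on very few control counts. Of 19 other basement membrane proteins (medians 0.21 and 0.39), 6 rose and 1 fell in NASH-CH (2 fell without NASH-CH rat 3 or rat 5). Over all genes, 8.38% were called higher and 8.6% lower in NASH-CH. In NASH limma-voom called 0 of them, with 7 at an unadjusted p under 0.05, 2 calls by edgeR and 3 by DESeq2. Fbln1, which encodes the laminin-binding glycoprotein fibulin-1, had the largest rise (log2 fold change 2.26 ± 0.47, adjusted p = 0.00339), and Tinagl1, which encodes a laminin-binding glycoprotein related to the tubulointerstitial nephritis antigen, fell by 0.42 on the log2 scale (adjusted p = 0.0210).

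Among 12 laminin receptor genes (median log2 fold changes 0.094 in NASH and 0.29 in NASH-CH), 1 rose in NASH-CH, a count near the 8.38% of all genes called higher. There 5 had an unadjusted p under 0.05, edgeR called 2 and DESeq2 3, and limma-voom called 2 without NASH-CH rat 1 and 3 without NASH-CH rat 4. In NASH limma-voom called 0, with 3 at an unadjusted p under 0.05, 0 calls by edgeR and 1 by DESeq2. The gene that rose was Sdc1, the heparan sulphate proteoglycan syndecan-1, at 37.7 ± 5.71 CPM in control and 70.7 ± 8.99 CPM in NASH-CH rats (log2 fold change 0.91 ± 0.13, adjusted p = 0.000157). Of 17 genes that build or edit heparan sulphate, the chain that perlecan carries, 1 was called in NASH and 5 in NASH-CH, all higher (median log2 fold changes 0.14 and 0.29). Over all genes, 1.58% were called higher in NASH and 8.38% in NASH-CH. The NASH-CH count was 3 without control rat 3, without NASH-CH rat 2 and without both NASH-CH rats 5 and 6. Sulf2, a sulphatase that trims heparan sulphate, rose in NASH by 0.85 ± 0.17 on the log2 scale (adjusted p = 0.0153), and Sulf1, its relative, had the largest rise in NASH-CH (1.94 ± 0.47, adjusted p = 0.00996). Of 12 matrix protease genes, 1 rose in NASH and 2 in NASH-CH (medians 0.20 and 0.11), beside 1.58% and 8.38% of all genes. Both were led by Mmp12, the macrophage elastase, with log2 fold changes of 4.02 ± 0.89 against control in NASH rats (adjusted p = 0.0221) and 5.42 ± 0.86 in NASH-CH rats (adjusted p = 0.000337). The control level of Mmp12 was only 0.17 ± 0.082 CPM. It passed the filter on low counts through the NASH and NASH-CH rats, where it was high. Its calls and the size of both fold changes therefore rest on very low control values. In NASH the protease count went from 1 to 0 without control rat 1, 3, 4 or 5, and also when at least 10 counts were required in every rat.

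Markers of the liver cells that make basement membrane were read beside the members. The counts of calls below stand beside 8.38% of all genes called higher and 8.6% called lower in NASH-CH against control. In NASH-CH, the capillary and vascular endothelial list had 2 of 7 tested genes called higher, among them Vwf, the von Willebrand factor gene (10.9 ± 2.18 CPM in control, 24.9 ± 8.26 in NASH-CH, adjusted p = 0.00245). The list as a whole did not rise with Vwf. Its median log2 fold change was 0.090, and Kdr ran from 59.4 to 92.0 CPM in control and from 36.7 to 81.9 in NASH-CH rats. The stellate cell and myofibroblast list had 4 of 11 higher and 1 lower, and the portal fibroblast and mesothelium list had 1 of 4 higher. The sinusoidal endothelial list had 0 of 7 genes called by limma-voom in NASH-CH against control (2 at an unadjusted p under 0.05, 0 by edgeR and 1 by DESeq2), and the cholangiocyte list 0 of 4 (1 at an unadjusted p under 0.05, 1 by edgeR and 0 by DESeq2). Among the other lists, hepatocyte markers had 1 of 8 higher and 3 lower, macrophage markers 5 of 7 lower, smooth muscle markers 1 of 5 higher and lymphocyte markers 0 of 4 called by limma-voom, by edgeR, by DESeq2 or at an unadjusted p under 0.05. The smooth muscle gene called was Des, which is also among the 4 stellate cell and myofibroblast genes called higher. Summed levels over the endothelial list were 121.1 to 170.7 CPM in control livers, 151.5 to 204.9 in NASH livers and 143.4 to 215.2 in NASH-CH rats, and over the stellate cell list 308.1 to 417.6, 289.2 to 386.8 and 326.1 to 492.4 CPM. Their part in the member levels was not tested.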

How the data were processed

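Whole-liver RNA of 18 rats (6 control, 6 NASH, 6 NASH-CH) was sequenced from stranded mRNA libraries. The authors trimmed adapters, aligned reads to Rnor_6.0 with STAR and quantified genes with RSEM, and deposited 1 table of expected counts per rat, not scaled for depth or gene length. Samples were grouped by their labels, and no rat was left out of the main analysis. The labels do not say how the rats were housed or that rats of the same number were handled together.

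Expected counts were rounded, scaled by TMM in edgeR 4.0.16, and compared by voom and moderated statistics of limma 3.58.1 (R 4.3.3), in 1 fit of 18 rats with a mean per group. filterByExpr left 12904 genes, and adjusted p-values (Benjamini-Hochberg) were taken over all of them, with calls under 0.05. Log2 CPM used a prior count of 2. Ratios of member pairs were compared by two-sided exact permutation over 924 regroupings (SciPy 1.17.1). Rats of a group were checked for duplicate libraries, and the smallest chi-square per degree of freedom was 29.8. The fit and the permutation test were tested on simulated data.

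The named genes were all 10 members, the called gene with the largest rise and the largest fall of each related list against control, and the 5 genes most correlated with Lamc1 and Hspg2. Results for some genes of these lists are not reported here. Promoters came from RefSeq (GRCr8), and no coordinates were converted between builds. Members, lists and tests were chosen with earlier results of these data known. The alternatives tried comprised DESeq2 1.42.0, its size factors alone, the quasi-likelihood test of edgeR, library size only, TMM without small RNA genes, thinned NASH-CH counts, other count filters, the 2 groups alone, sample quality weights, a replicate block, an adjusted p of 0.01 and leaving out each rat. Totals of 19498534 to 60117822 counts bound the counting error alone, and 6 rats per group limit the precision.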

Additional observations from a re-analysis of the deposited data

Results flagged for a closer look

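Of 45 groups of 6 rats examined (members on the log2 CPM scale and log2 ratios of members), 3 held a rat whose gap to the nearest other rat, divided by the range of the group, exceeded Dixon's critical value of 0.625. Chance gives about 1 such group in 20. Lama2 in NASH rat 3 stood at 11.38 CPM, above the other NASH rats (0.697 of the range in log2 CPM, 0.749 in CPM). On the CPM scale, examined after the data were seen, 2 further gaps passed 0.625, those of Hspg2 in NASH-CH rat 6 (0.748 of the range, 0.59 in log2 CPM) and Lama5 in NASH-CH rat 5 (0.723, and 0.515 in log2 CPM). The log2 ratio of Lama4 to Lama5 in NASH-CH rat 5 was -0.89, below the other NASH-CH rats (0.646 of the range). The log2 ratio of Hspg2 to Lamc1 in NASH rat 4 was -1.54, below the other NASH rats (0.663 of the range).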

How the results depend on the processing

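Of 900 recomputed log2 fold changes of members, 802 kept their direction and side of the threshold, as did 315 of 345 recomputed ratios. Scaling by library size only moved the all-gene median of log2 fold changes to 0.23 (NASH) and 0.27 (NASH-CH) and split the calls 785 higher to 80 lower and 2781 to 489, so member counts under it are relative to that shift. Members called higher in NASH numbered 1 with library size only, 2 with the 2 groups alone, 3 with sample quality weights, 2 without NASH-CH rats 5 and 6 (chosen after the data were seen), and 0 to 1 when 1 rat was left out. Leaving out NASH-CH rats acts on NASH against control only through the shared spread, scaling, filter and adjustment. All genes called higher in NASH numbered 204 in the main fit and 354 with the 2 groups alone. They numbered 713 with sample quality weights and 521 without NASH-CH rats 5 and 6. In NASH-CH, members called higher numbered 4 by edgeR, by DESeq2 and with no filter, 5 with library size only, and 1 with DESeq2 size factors, TMM without small RNA genes, thinned counts, the 2 groups alone, sample quality weights, without NASH-CH rats 5 and 6 and at an adjusted p of 0.01, and 1 to 4 when 1 rat was left out. All genes called higher in NASH-CH numbered 1082 in the main fit, 1279 by edgeR, 1439 by DESeq2 and 1529 of 20887 with no filter. They numbered 665 with the 2 groups alone, 1187 with sample quality weights and 816 without NASH-CH rats 5 and 6. Members called lower in NASH-CH numbered 1 with no filter, where 3966 of 20887 genes were called lower, and 0 to 1 when 1 rat was left out. Against NASH, members called lower numbered 1 with sample quality weights, 1 without NASH-CH rats 5 and 6, and 0 to 1 when 1 rat was left out. All genes called lower against NASH numbered 308 in the main fit, 417 with sample quality weights and 319 without NASH-CH rats 5 and 6. The causes were not tested.

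Log2 fold changes of 6 genes changed sign somewhere. In NASH, Nid2 was -0.0046 by edgeR and -0.0058 by DESeq2 (-0.072 to 0.078 without 1 rat), and Lama2 ran from -0.037 to 0.12 without 1 rat. In NASH-CH, Lamb2 was 0.013 by edgeR, 0.0065 by DESeq2, 0.25 with library size only, 0.00299 with no filter and 0.00878 with at least 10 counts in every rat (-0.089 to 0.059 without 1 rat), and Hspg2 was -0.067 with sample quality weights and -0.30 without NASH-CH rats 5 and 6 (-0.19 to 0.22 without 1 rat). In NASH-CH against NASH, Lama2 was -0.0019 without NASH-CH rats 5 and 6, Lamc1 ran from -0.072 to 0.13 without 1 rat, and Lama4 was -0.00601 with TMM without small RNA genes, -0.043 with thinned counts, -0.0012 with the 2 groups alone, -0.024 with sample quality weights and -0.059 without NASH-CH rats 5 and 6 (-0.066 to 0.048 without 1 rat).

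Same-numbered rats did not deviate together, with correlations of -0.12 to 0.17 between NASH and control, 0.027 to 0.12 between NASH-CH and control and -0.074 to 0.080 between NASH-CH and NASH. With rat number entered as a replicate block, 2 members were called higher in NASH-CH, Nid1 and Lama5 (adjusted p = 0.00612 and 0.0203), and Lama4 was not (0.0719). As sign-flip tests with the replicate block, the ratio differences of 0.56 and 0.61 for Lamb1 to Lamb2 (against control and against NASH), -1.02 for Lama4 to Lama5 and -1.18 for Lama2 to Lama5 had exact adjusted p of 0.0938 to 0.134. The smallest p of a sign-flip test here is 0.031. After adjustment over 15 tests it falls under 0.05 only if most of the tests reach it. These tests could therefore hardly pass, and they decide nothing about the ratios. Without NASH-CH rats 5 and 6, Lama2 to Lama5 in NASH (-0.65) and Hspg2 to Lamc1 between NASH-CH and NASH (-1.05) passed, and Nid1 to Nid2 between NASH-CH and NASH was -0.013. The Lama2 to Lama5 difference in NASH uses no NASH-CH rat and did not change. It passed only through the adjustment over the 15 tests. When 1 rat was left out, Lamb1 to Lamb2 ran from -0.11 to 0.0064 in NASH, 0.40 to 0.65 in NASH-CH and 0.45 to 0.70 between them, Lama4 to Lama5 from -1.19 to -0.67 in NASH-CH against control, and Lama2 to Lama5 from -0.80 to -0.53 in NASH against control. Nid1 to Nid2 ran from 0.28 to 0.42 in NASH and -0.065 to 0.13 between NASH-CH and NASH, and Hspg2 to Lamc1 from 0.36 to 0.65 in NASH and -0.98 to -0.57 between NASH-CH and NASH. Depth limits Lama5 most, at 26 to 49 counts per control library.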
